A study of Mus musculus with 8 samples.

Results

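Fragments of the abundant structural RNAs were followed through 8 small-RNA libraries of NIH-3T3, a mouse fibroblast line that grows without limit in culture. They are short pieces of 5S ribosomal RNA, of the spliceosomal small nuclear RNAs (snRNAs), and of the 7SL, 7SK, Y and vault RNAs. An insert is the sequence left after removal of the 3′ adapter. A read was kept when its insert was 18 to 30 nt long and matched no miRNA hairpin named Mir. The insert also had to match perfectly, on the sense strand, a nuclear GENCODE transcript of type rRNA, snRNA or misc_RNA. Other GENCODE miRNA genes, which are predicted, did not exclude a read. The annotation holds 2303 genes of these types among 55450 genes. Over all libraries 5828 reads with 813 distinct inserts were kept, which is 0.152% of 3844323 usable inserts, and they touched 721 of the 2303 genes. Usable inserts are all 18 to 30 nt inserts free of marker oligonucleotides, and levels below are reads per 1000000 of them (rpm).

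All cells were NIH-3T3 passaged in medium with 10% serum. In the serum experiment they were starved for 48 h and given 20% serum, and were collected at 0 h (labelled G0), 12 h (G1), 16 h (S), 20 h (G2/M) and 24 h (G1). In the contact experiment they were plated at 12% confluency and collected on day 0 (asynchronous), day 3 and day 5 (both labelled G0). Each condition is 1 library, so a difference between 2 libraries compares those libraries and has no replicate check. Phases were compared as the 3 libraries labelled G0 against the other 5, the contrast that uses every library.

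The experiments differed in more than the treatment. Deposited reads numbered 6121247 to 8512472 per serum library and 707202 to 801593 per contact library, but 62.3 to 94.8% of the serum reads were marker oligonucleotides, against 0.00437 to 0.0392% of contact reads. Usable inserts numbered 192331 to 1170604. Serum libraries were also less varied: the 638 kept reads of the 12 h library came from 16 distinct inserts and the 573 of the 0 h library from 46, whereas the 514 to 582 reads of each contact library came from 207 to 239. Differences between serum and contact libraries therefore cannot be told apart from differences in how the libraries were made, and exact (Clopper-Pearson) 95% intervals cover counting error only. Nothing in the labels says which libraries were made together. Hairpins of 9 of 9 fibroblast or mesenchymal miRNAs had reads in all, at a summed 86633 to 272939 rpm, while the epithelial, muscle, blood, neural, pluripotent and liver lists reached at most 1654 rpm each. The epithelial list was at 0 to 1654 rpm in the serum libraries, with its highest value at 0 h (592 of 606 reads), and at 1.69 to 5.39 rpm in the contact libraries. The blood list reached 333 rpm, also at 0 h, against 13.5 rpm in the contact libraries, and the pluripotent list 734 rpm at 12 h against 80.7 rpm. Their part in the results below was not tested. Mir429, Mir133a-1 and Mir144 of those lists had 0 reads.

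The RNAs differ in how they are made. RNA polymerase III transcribes 5S rRNA, U6, 7SK, 7SL, the Y RNAs and vault RNA, and its transcripts end in a short run of U. 7SL is the RNA scaffold of the signal recognition particle, which brings ribosomes to the endoplasmic reticulum. Y RNAs are stem-loops bound by the Ro60 protein. RNA polymerase II transcribes U1, U2, U5 and U12, which carry a U-rich Sm site on which a ring of Sm proteins is assembled. The 3′ ends of several of these RNAs are known to receive an untemplated adenosine in cells. Fragments of such RNAs in a small-RNA library can form in the cell or during extraction, which cannot be told apart here.

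The inserts that carry the results are given first, 5′ to 3′, as DNA letters with the number of reads over all libraries. They are the commonest insert at the commonest start of the main families and, for the Y1 end, at the start whose share of Y1 reads varied most between libraries, with capitals marking bases where Y1 and Y3 are identical at the same position, the T run at the 3′ end, or the bases of an Sm site.
7SL end (positions 277 to 300 of Rn7s1, 424 reads): caacatagcgagaccccgtctcTT
Y1 start (1 to 30 of Rny1, 402 reads): GGcTGGTCCGAagGTAGTGagtTaTctcAa
Y1 end (83 to 110, 99 reads): cttctcactactgcacttgactagtcTT
Y3 start (1 to 25 of Rny3, 133 reads): GGtTGGTCCGAgaGTAGTGgtgTtT
5S end (100 to 119 of Rn5s, 58 reads): aataccgggtgctgtaggcT
U2 near its end (166 to 187 of Rnu2-10, 56 reads): gtacctccaggaacggtgcacc
U1 end (147 to 164 of Rnu1a1, 36 reads): cgttcgcgctctcccctg
U5 from the Sm site (90 to 112 of Rnu5g, 29 reads): TTTTTGaggccttgtcttgacaa

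On GRCm38 these genes each have a single exon. Rn7s1 lies at chr12:69159295-69159594 (plus strand) and overlaps Gm47287 and Gm47295. Rny1 lies at chr6:47788069-47788180 (minus) and Rny3 at chr6:47781624-47781725 (plus), with no other gene over them. Rn5s lies at chr8:123598158-123598276 (minus) and overlaps Gm20388. Rnu2-10 lies at chr11:101658238-101658428 (plus) and overlaps no other gene, Rnu1a1 at chr11:87422867-87423030 (plus) within Tex14, and Rnu5g at chr9:65201726-65201841 (minus) within Parp16. These families have many near-identical copies, 351 for 5S and 207 for U1 in the annotation, and 53.2% of the reads matched more than 1 gene. Reads were therefore summed by family, and a position refers to the copy that explained most reads of its family. Counted over the same reads, 32.4% also matched a transcript of another type, and this holds for 1310 of the 1498 7SL reads, which fall on predicted miRNA genes that lie in 7SL copies. These 1310 reads were kept because only hairpins named Mir excluded a read. The 7SL levels, and most 7SL reads at the 3′ end, therefore rest on that choice.

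Most of the reads came from polymerase III transcripts. They gave 4361 reads, against 1420 from the Sm-class snRNAs with Gm24265, an snRNA gene to which the annotation gives no family. None of the families used here is U4, so any fragments of U4 snRNA were not counted under that name. Whether Gm24265 is a U4 gene was not tested. By type, misc_RNA held 68.2% of reads, snRNA 25.1% and rRNA 6.69%. Of 16 families with reads, 10 had at least 100: 7SL (1498 reads), Y1 (1447), Y3 (800), U2 (523), 5S (385), U1 (297), U5 (241), Gm24265 (176), U12 (165) and vault (117). The remaining reads were few, with 71 for 7SK, 43 for U6, 14 for U11, 12 for misc_RNA of no family, 5 for the sense strand of CT010467.1 and 4 for U7, and 30 reads were shared by 2 families. The 5.8S rRNA had 0 reads.

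7SL gave the most reads over the serum libraries together, though Y1 had more at 0 and 16 h and U2 at 0 h. Its level was 313 rpm at 0 h, 767 rpm at 12 h, 483 rpm at 16 h, 1204 rpm at 20 h and 671 rpm at 24 h, against 132, 149 and 52.5 rpm on contact days 0, 3 and 5. All 5 serum libraries lay above all 3 contact libraries, and the 0 h library was the lowest of the serum series.

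Y1 and Y3 differed in their balance between libraries. Y1 was at 335, 680, 517, 494 and 380 rpm from 0 to 24 h and at 231, 162 and 242 rpm on contact days 0, 3 and 5. Y3 was at 201, 149, 136, 118 and 234 rpm and at 168, 370 and 291 rpm in the same order. Within a library, where the scale cancels, perfect Y1 reads exceeded perfect Y3 reads by 1.62 to 4.56 times in the serum libraries. In the contact libraries the ratio of Y1 to Y3 reads was 1.37 (95% interval 1.01 to 1.87) before arrest, then 0.437 after 3 days, with an interval of 0.337 to 0.562, and 0.831 after 5 days, with an interval of 0.661 to 1.04. With inserts of 1 added base, described further on, Y1 and Y3 had 84 and 65 inserts on their reference copies at 24 h. On contact day 0 they had 147 and 91, so the serum and contact ratios then overlapped. Between contact libraries, Y3 was 2.20 times higher on day 3 than on day 0 (1.68 to 2.91) and 1.73 times higher on day 5 (1.31 to 2.30).

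By perfect matches the other polymerase III transcripts were rarer. 5S rRNA was at 76.3 to 168 rpm in the serum libraries and 43.1 to 57.5 rpm in the contact libraries. With 1 added base counted, described further on, inserts on the reference copies numbered 2073 for 5S, 1812 for Y1 and 957 for Y3. Vault RNA, part of a large cytoplasmic ribonucleoprotein, was at 54.7, 82.4 and 120 rpm at 16, 20 and 24 h, at 11.2 rpm at 0 h and at 2.24 to 3.59 rpm in the contact libraries. It had 0 reads at 12 h, where 3 reads, the upper limit that a count of 0 allows, would be 10.9 rpm. 7SL and 7SK, a regulator of transcription elongation, were far apart in reads, with 6.03 to 76.8 7SL reads per 7SK read in the 6 libraries that had any 7SK read.

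**Figure D1:**
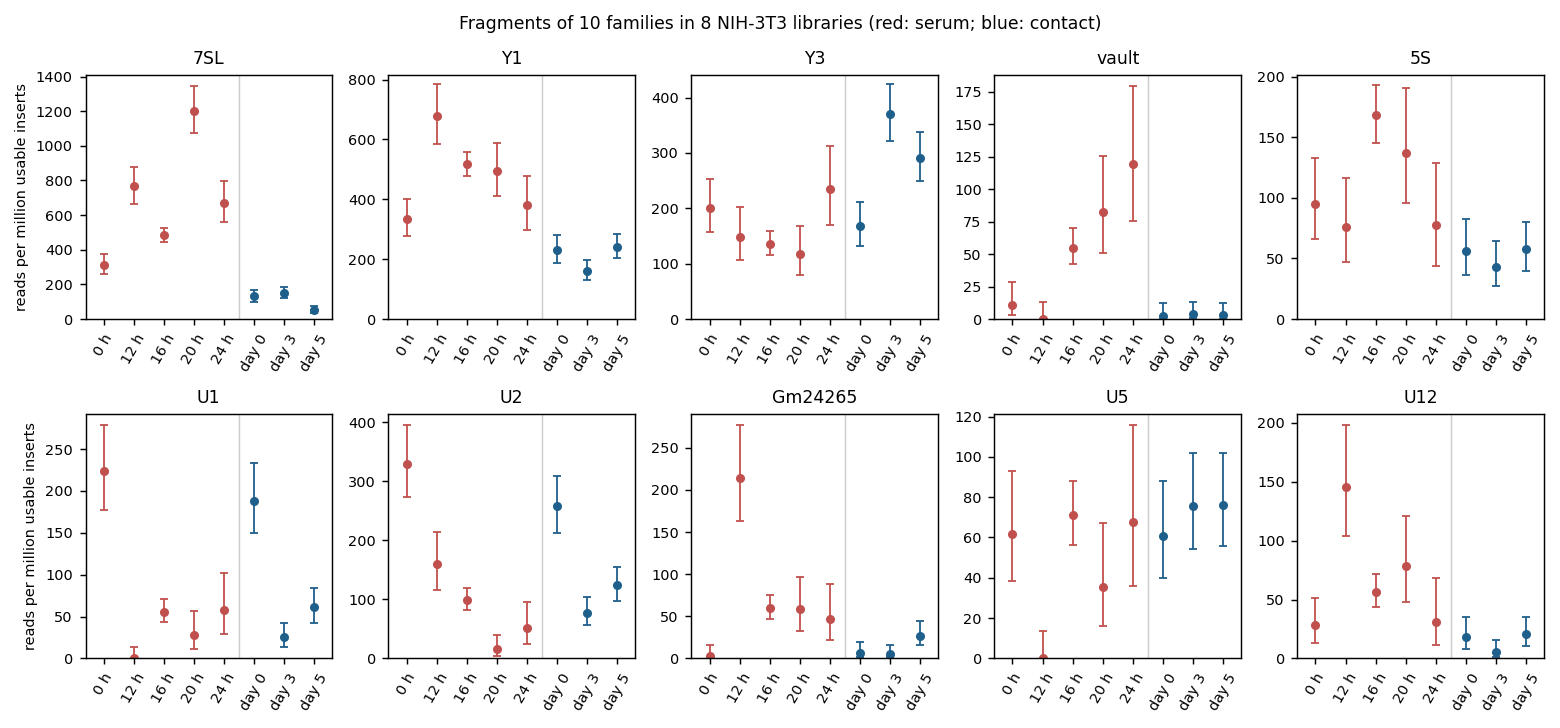
Level of each of the 10 families with at least 100 reads (vertical axis, rpm, from 0) in the 5 serum libraries (red, 0 to 24 h) and the 3 contact libraries (blue, days 0 to 5); bars are exact 95% intervals for counting error. 7SL is at 313 rpm or more in each serum library and at 149 rpm or less in each contact library, and U1 and U2 are high at serum 0 h and contact day 0.

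Of the 10 families, 4 (7SL, Y1, 5S and U12) had every serum library above every contact library on this scale, beside 22.6% of the 283 small-RNA features with at least 100 reads. No family had every contact library above every serum library, beside 5.65% of those features. The count depends on the scale. With edgeR's TMM factors, which were 1.12 to 1.37 in the serum and 0.636 to 0.844 in the contact libraries, only 7SL of these 4 families still separated that way (10.2% of features), and Y3 and U5 lay higher in every contact library (14.1%). This scaling was added after the data were seen.

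Among the snRNAs, U1 and, by perfect matches, U2 were highest in the library at 0 h of the serum series and on day 0 of the contact series, which are the start of a release from arrest and an unarrested culture. U1 forms the particle that pairs with the 5′ splice site, and U2 the one that pairs with the branch point. U1 was at 224 rpm at 0 h, had 0 reads at 12 h, and was at 55.5, 27.5 and 57.2 rpm at 16, 20 and 24 h. On contact days 0, 3 and 5 it was at 188, 25.2 and 60.9 rpm. U2 was at 330, 160, 99.1, 15.7 and 52.0 rpm in the serum libraries and at 258, 77.3 and 123 rpm in the contact libraries. The 20 h and 24 h values of U2 rest on 4 and 10 reads.

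As ratios of single libraries, U1 at 0 h, with 80 reads against 0 at 12 h, was at least 20.5-fold higher than the 3 reads that a count of 0 allows (exact 95% lower limit 16.3). It was 4.03 times the 16 h level (2.87 to 5.67), 8.14 times the 20 h level (3.78 to 20.9) and 3.91 times the 24 h level (2.07 to 8.14). U2 at 0 h was 2.06, 3.33, 21.02 and 6.34 times its level at 12, 16, 20 and 24 h. By a criterion of at least 2-fold against all 4 released libraries with every interval clear of 1, U1 and U2 were higher at 0 h and Gm24265 was lower, which is 3 of 12 member features with enough reads, beside 14.1% of 355 features (10.1% higher and 3.94% lower at 0 h). Per miRNA read in place of usable inserts, the same 3 passed, beside 11.3% higher and 3.66% lower. On contact day 0, U1 was 7.49 times its day 3 level (4.22 to 14.3) and 3.09 times its day 5 level (2.07 to 4.70). U2 on day 0 was 3.34 times (2.33 to 4.85) and 2.09 times (1.54 to 2.84) its levels on those days. By perfect matches these were 2 of 7 member features past the same criterion against both later days, beside 26.2% of 256 features, most of which were lower on day 0 (21.1%) rather than higher (5.08%). Per miRNA read, U1 and U2 passed again, beside 6.64% of features higher on day 0.

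The U2 calls depend on the perfect-match rule, which leaves out U2 fragments with an added A, described further on. Counting inserts with 1 added base, U2 had 157, 44, 365, 42 and 23 reads from 0 to 24 h and 136, 88 and 104 on contact days 0, 3 and 5. U2 at 0 h was then 2.74, 1.41 (1.16 to 1.70), 2.66 and 3.67 times its level at 12, 16, 20 and 24 h. On contact day 0 it was 1.93 (1.46 to 2.55) and 1.73 (1.33 to 2.26) times its later levels, so U2 passed the 2-fold criterion in neither series. The U1 ratios moved little, with 4.03, 8.14 and 3.91 against 16, 20 and 24 h and 7.75 and 3.12 in the contact series. This count was added after the data were seen.

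The perfectly matched U2 level at 0 h also rests largely on 1 insert. Of its 118 reads, 64 were a single 19-nt sequence from positions 98 to 116 of another U2 copy, Gm24497 (the fragment at chr1:72244310-72244328, plus strand), which occurred in no other library. It covers the Sm site and carries the substitution G109C relative to Rnu2-10, counted from 1 at the 5′ end of the copy. Beside it is the commonest fragment of that region on Rnu2-10 (positions 96 to 115), which had 26 reads, 19 of them on contact day 0. Both were chosen after their values were seen, and capitals mark the Sm site.
U2 copy Gm24497 (64 reads): gATTTTTGgaactaggagt
U2 copy Rnu2-10 (26 reads): tggATTTTTGgaagtaggag

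Without that insert, U2 at 0 h fell from 330 to 151 rpm, and its ratio to the 12 h level was 0.944 (0.622 to 1.44), to 16 h 1.52 (1.08 to 2.12), to 20 h 9.62 (3.55 to 36.6) and to 24 h 2.90 (1.46 to 6.39). U2 then no longer passed the 2-fold criterion. The 44 U2 reads at 12 h were in turn 1 insert. For U1 at 0 h, 29 of 80 reads were 1 insert not seen elsewhere. Without it U1 was at 143 rpm at 0 h and still 2.57 times the 16 h level (1.74 to 3.76), 5.19 times the 20 h level (2.35 to 13.6) and 2.49 times the 24 h level (1.28 to 5.30).

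The balance of the classes differed between libraries. The ratio of polymerase III to Sm-class reads was 1.48 at 0 h (1.25 to 1.76), then 3.46, 4.04, 9.58 and 5.88 at 12, 16, 20 and 24 h. In the contact series it was 1.10 (0.924 to 1.32) before arrest, 3.87 at 3 days and 2.07 at 5 days. Without the 64 U2 and 29 U1 reads of the inserts seen only at 0 h, the ratio there was 2.48 (2.03 to 3.04), above that of contact day 5. By all perfect reads the lowest ratios were those of serum 0 h, labelled G0, and contact day 0, labelled asynchronous. These ratios leave out inserts with 1 added base, described further on. At 0 h such inserts numbered 294 for 5S, 259 for 7SL and 39 for U2, beside 34, 112 and 118 perfect reads. On contact day 3 they numbered 57, 31 and 45, beside 24, 83 and 43. Counting them would raise the 0 h ratio and lower that of day 3, so this order holds for perfect reads only.

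U5, the snRNA of the tri-snRNP that contacts both exons, was at 35.3 to 70.9 rpm in the serum libraries with reads and at 60.5 to 76.2 rpm in the contact libraries, with 0 reads at 12 h. Its reads came mainly from 3 copies. Of the reads on Rnu5g, 70.8% began inside the Sm site, and the commonest inserts of the copies Gm24871 (chr1:171503052-171503074, minus strand) and Gm25313 (chr9:65196579-65196598, minus strand) began at the same position, 90, and differ in the stem that follows. These 2 were chosen after their values were seen.
U5 copy Rnu5g (29 reads): TTTTTGaggccttgtcttgacaa
U5 copy Gm24871 (20 reads): TTTTTGaggccttgctttagcaa
U5 copy Gm25313 (18 reads): TTTTTGaggccttgtttcgg

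Gm24265 showed the same start. Of its 176 reads, 64.8% began inside its motif of A, 4 or more T, then G, and 89.2% ended within 2 bases of the annotated end. The motif, searched on the sense strand of the transcripts, occurs in 8.16% of the 2303 member transcripts and in 9.26% of the 1383 snRNA transcripts. The commonest insert, at chr5:115489579-115489599 (plus strand, positions 121 to 141, 65 reads), is shown without capitals.
Gm24265: ttttgacagtctctacggaga
Gm24265 was at 2.79 rpm at 0 h from 1 read, at 214, 59.8, 58.8 and 46.8 rpm at 12, 16, 20 and 24 h, and at 6.73, 5.39 and 27.1 rpm on contact days 0, 3 and 5. All 59 reads at 12 h were this insert. U12, the branch-point snRNA of the minor spliceosome, was at 27.9, 145, 56.4, 78.4 and 31.2 rpm in the serum libraries and at 5.39 to 20.3 rpm in the contact libraries. Its 40 reads at 12 h were also 1 insert.

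Where in the parent RNA the fragments lay differed between the families and between the experiments. Counting an end within 2 bases of the annotated end as terminal, 51.1% of serum reads ended at the 3′ end of their RNA, against 15.7% of contact reads. By library these shares were 30.02, 56.3, 53.0, 68.5 and 35.2% from 0 to 24 h and 13.2, 14.8 and 18.6% on contact days 0, 3 and 5. At the 5′ start the order was the other way, with 16.5% of serum and 32.8% of contact reads, but the libraries overlapped.

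7SL gave 1130 of the 2148 serum reads at a 3′ end and 23 of the 254 contact reads. In the serum libraries 84.8, 88.2, 90.3, 89.3 and 49.6% of 7SL reads ended at the 3′ end, against 20.3, 4.82 and 22.6% in the contact libraries. On contact days 0 and 3 most reads lay inside the molecule. Position 183 of Rn7s1 was covered by 50.9% of reads on day 0 (27 of 53) and 58.8% on day 3 (47 of 80). It was covered by 13.3% on day 5 (4 of 30) and by 0 to 11.4% in the serum libraries. On day 5, 35.5% of 7SL reads (11 of 31) began at the 5′ start. The commonest of these internal inserts spans positions 170 to 197 (chr12:69159464-69159491, plus strand) and had 17, 34 and 2 reads on contact days 0, 3 and 5, 5 reads at 24 h and 0 in the other serum libraries. It was chosen after its values were seen.
7SL internal (58 reads): ctaaggaggggtgaaccggcccaggtcg

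**Figure D2:**
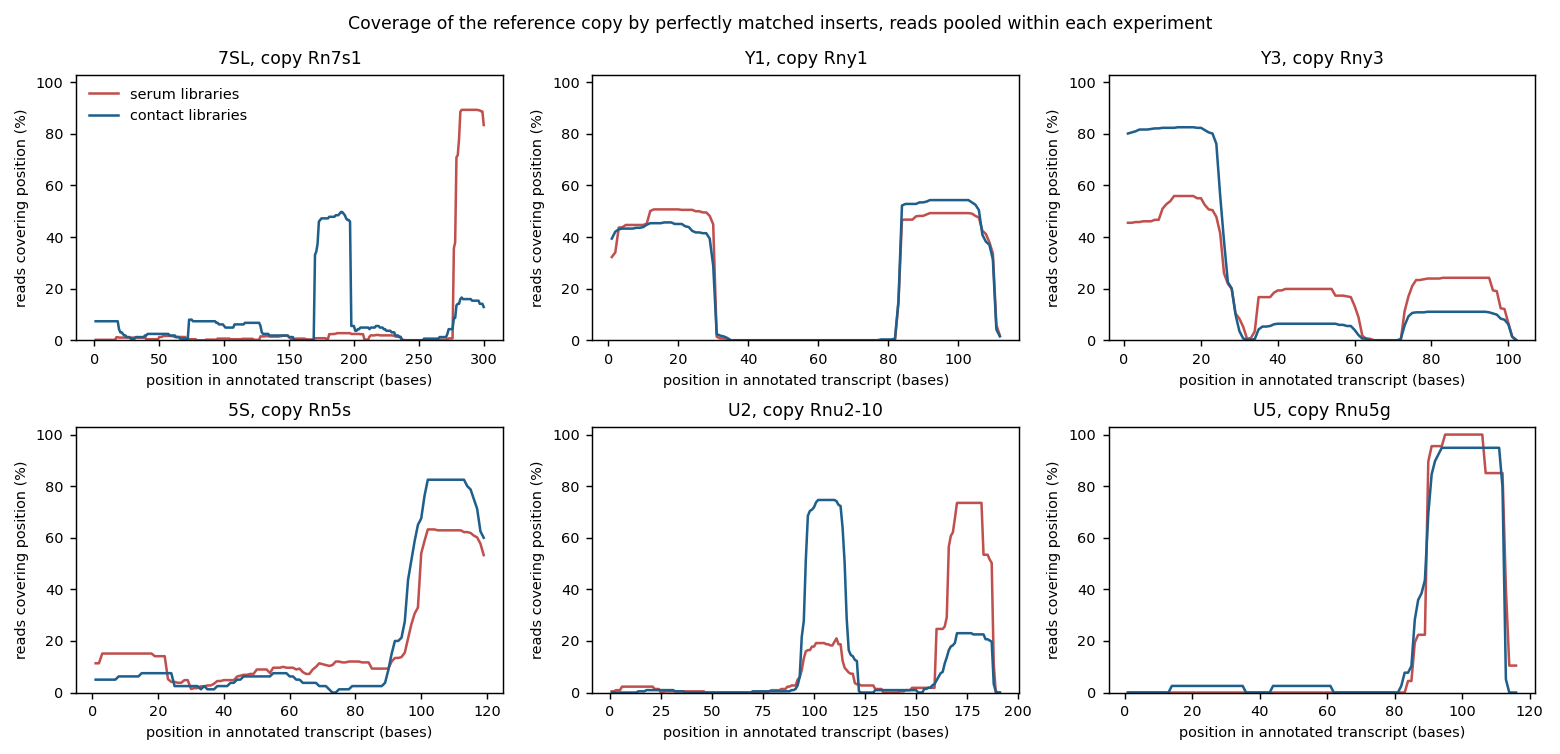
Share of reads covering each position (vertical axis, percent) of the reference copy of each family shown (horizontal axis, bases from the transcript start), with reads pooled over the serum libraries and over the contact libraries. For 7SL the serum line is high only at the 3′ end while the contact line peaks inside the RNA, and for U2 the contact line peaks at the Sm site and the serum line near the 3′ end.

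U2 fragments also lay in different regions. On Rnu2-10, position 105 at the Sm site was covered by 91.0, 28.6 and 78.9% of reads on contact days 0, 3 and 5. In the serum libraries it was covered by 39.3% at 16 h and by 0 of 54, 44, 4 and 10 reads at 0, 12, 20 and 24 h. Position 176, near the 3′ end, was covered by 100, 100, 48.6, 25 (1 of 4) and 100% of reads from 0 to 24 h and by 9, 64.3 and 18.3% on contact days 0, 3 and 5. The groups overlapped through the 16 h and day 3 libraries. The reads on Gm24497, among them the 64 over its Sm site at 0 h, are not in these shares.

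Y1 gave mainly its 2 ends, which pair into the stem. Of Y1 reads, 43.5% began at the start and 33.1% ended at the end, with 43.7% and 43.2% of serum and contact reads at the start. Y1 and Y3 are identical at 16 of their first 20 bases, and both starts appear among the sequences above. Of Y3 reads 65.8% began at the start: 18.1, 100, 40.9, 26.7 and 71.1% from 0 to 24 h, where the 41 reads at 12 h were 1 insert, and 78.7, 85.9 and 76.2% on contact days 0, 3 and 5. Only 6.38% of Y3 reads ended within 2 bases of the 3′ end, in contrast to Y1. Another 27.9% of Y3 reads lay outside both windows of 2 bases (47.6% of serum and 12.8% of contact reads). Among them 31 ended at position 61, and 30, 27 and 19 ended near the 3′ end, at positions 97, 99 and 95 of 102. Perfect reads within 5 bases of the 3′ end numbered 111 for Y3 and 608 for Y1. Y1 inserts had a mean length of 27.1 nt and 30 nt, the longest accepted, was their commonest length, and longer pieces were not counted.

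**Figure D3:**
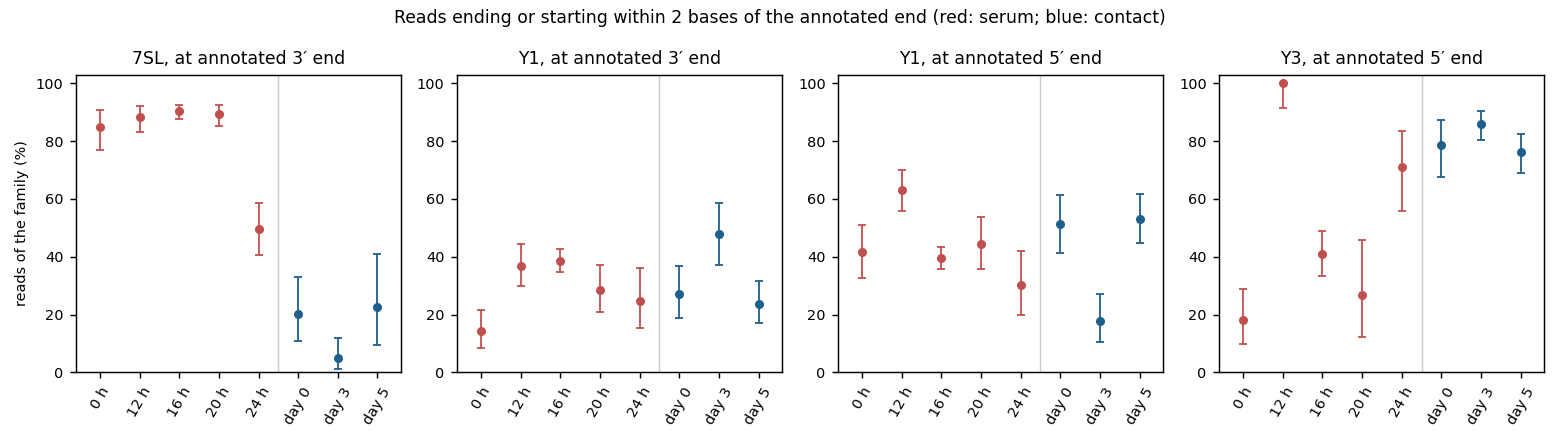
Share of a family's reads (vertical axis, percent) that end within 2 bases of the annotated 3′ end or start within 2 bases of the 5′ end, in the serum (red) and contact (blue) libraries, with exact 95% intervals. The 7SL 3′ shares are 49.6% or more in the serum libraries and 22.6% or less in the contact libraries.

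5S and vault fragments were 3′ pieces too, with 60.8% and 74.4% of reads at the annotated end. Of U12 reads 55.2% and of U1 reads 21.9% ended there, and of U5 reads 3.32%. The window of 2 bases leaves out ends that lie just before it. On Rnu5g, 59 and 22 of 106 U5 reads ended at positions 112 and 113 of 116. On Rnu2-10, 121 and 30 of 432 U2 reads ended at positions 187 and 188 of 191. The U1 share was 35.0% at 0 h, 43.1% at 16 h, 42.9% at 20 h (of 7 reads) and 0% at 24 h (of 11 reads), and 1.19, 14.3 and 8.33% on contact days 0, 3 and 5, so the groups overlapped.

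A perfect match to the end cannot show a base that was added after transcription. Usable inserts that matched a member only up to their last base were therefore counted separately, as a measure outside the rule, and gave 5448 reads beside the 5828 perfect ones. An added base identical to the next annotated base still counts as a perfect match and is not seen. An A that the annotated copies do not hold was common on some RNAs and nearly absent on others. No genome sequence was read here, so whether a base added past an annotated end is encoded there was not tested. These sequences end in the added base, in capitals, with reads over all libraries.
Y1 (84 to 110 and added A, 150 reads): ttctcactactgcacttgactagtcttA
U2 (166 to 187 and added A, 136 reads): gtacctccaggaacggtgcaccA
5S (100 to 119 and added T, 401 reads): aataccgggtgctgtaggctT

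Of all 7SL inserts, perfect and with 1 added base, 55.3% carried an added A. Internal fragments enter that share but say nothing of the end, so inserts on the reference copy that end within 5 bases of its annotated end were taken alone. Of these, an added A was on 62.7, 47.8, 60.4, 63.3 and 71.8% from 0 to 24 h (305 to 1603 inserts) and on 57.1, 69.0 and 64.3% on contact days 0, 3 and 5 (42, 29 and 28 inserts). The serum and contact libraries overlapped, with 60.6% of the serum and 62.6% of the contact inserts. After position 299 the next annotated base is T, so an added T is not seen there. Past the annotated end, after position 300, 729 inserts had an added A and 215 an added T. With added bases counted and this window of 5 bases, the share of Rn7s1 inserts at the 3′ end was 88.9 to 97.6% in the serum libraries and 48.3, 26.1 and 52.8% on contact days 0, 3 and 5, and these groups did not overlap.

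U2 carried an added A in 45.4% of inserts, and 420 of 420 inserts counted with a base added after position 187 had A. The next base of Rnu2-10 is C, so an added C would be counted among the 30 perfect reads that ended at 188. Position 187 is 4 bases before the annotated end of Rnu2-10. Among Rnu2-10 inserts that end within 5 bases of that end the share was 37.5, 82.7, 97.4 and 56.5% at 0, 16, 20 and 24 h and 70, 64.7 and 73.7% on contact days 0, 3 and 5. None of the 44 reads at 12 h ended there. Near the Y1 end an added A was on 0 to 61.5% of inserts in the serum libraries and 20.9 to 41.0% in the contact libraries. Over all inserts, Y1 carried an added A in 19.7%, Y3 in 14.9% and vault in 8.33%. Most of the 143 Y3 inserts with an added A were internal, with 56 after position 61 and 28 after position 59 of the 102 bases. Within 5 bases of the Y3 end were 53 of them. By the same count U1 (0.332%), U12 (0.599%) and U5 (0%, with an added G in 58 inserts) had almost none. For U1, 0 of the 76 inserts within 5 bases of the Rnu1a1 end carried an added A. Only 3.32% of perfect U5 reads ended within 2 bases of the annotated end, but most on Rnu5g ended 3 or 4 bases before it. After position 112 of its 116 bases, where 59 perfect reads ended, 1 insert had an added base, a T. An added-A share for inserts near the U5 end alone was not taken. Reads of miRNA hairpins, counted over all inserts, carried an added A in 6.14% (4.25 to 8.56% per library).

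**Figure D4:**
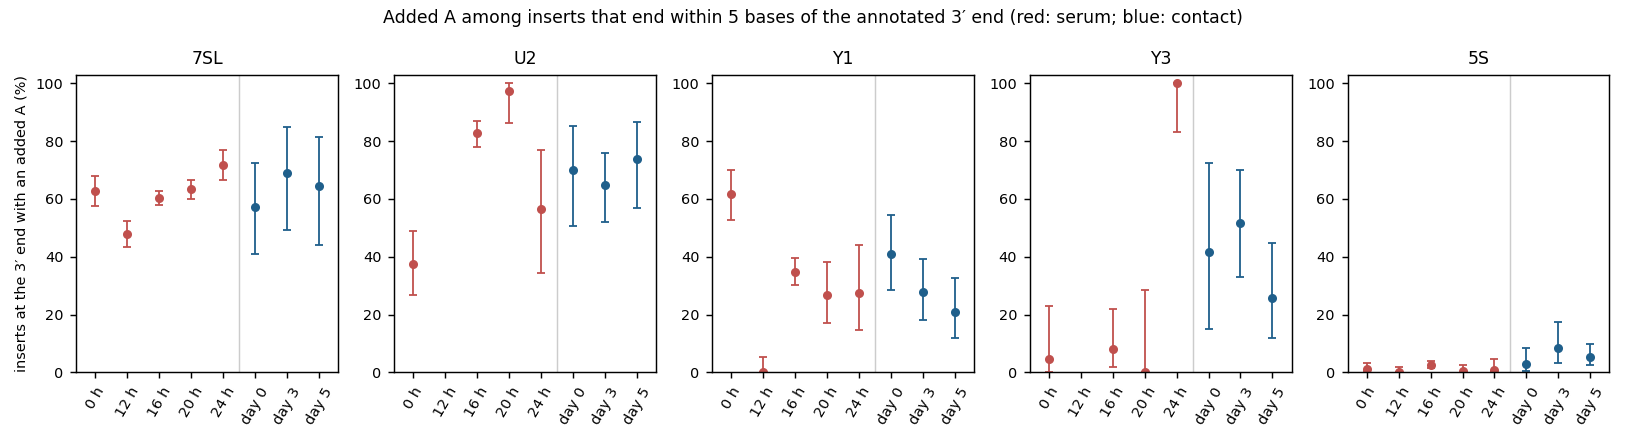
Share of inserts whose last base is an A absent from the annotated copy (vertical axis, percent), among inserts on the reference copy ending within 5 bases of its annotated 3′ end, for 5 families in the serum (red) and contact (blue) libraries, with exact 95% intervals. For 7SL the contact libraries (57.1 to 69.0%) lie within the serum range (47.8 to 71.8%), 5S stays at 8.33% or less, and U2 and Y3 have no point at 12 h, where no insert ended there.

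5S rRNA differed in the base. Only 2.10% of its inserts ended in an added A, whereas 1662 had an added T, 1655 of them right after the annotated end at position 119. This is more than the 385 perfect 5S reads. GENCODE gives 119 bases as the commonest length (92 of 351 transcripts), while RefSeq gives 121 (32 of 58 genes), so that on RefSeq's commonest length a base after 119 lies within the gene. The 5S levels above count the form that stops at the GENCODE end.

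A larger set of ribosomal fragments lay outside the rule. Fragments of 28S rRNA were not analysed here. CT010467.1, a single-exon transcript annotated as rRNA at chr17:39846353-39848201 on the minus strand, overlaps AY036118 and Gm42418. It had 5 sense reads and 13242 reads with 1621 distinct inserts on its other strand, where RefSeq places the 18S rRNA gene Rn18s-rs5, also of 1849 bases, so these are sense fragments of 18S rRNA. They numbered 3037, 1591, 3290, 619 and 640 from 0 to 24 h and 1203, 2163 and 699 on contact days 0, 3 and 5. Of them 56.5% began at the first base. The sequences are the 2 forms of that fragment, at chr17:39846353-39846375 and 1 base shorter, and a fragment of the 3′ end (positions 1828 to 1849, chr17:39848180-39848201), all on the plus strand.
18S start, 23 nt (4376 reads): tacctggttgatcctgccagtag
18S start, 22 nt (2869 reads): tacctggttgatcctgccagta
18S end (222 reads): tgaacctgcggaaggatcatta

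The 18S start differed between the experiments by 1 base in length. Among reads that began at base 1, the 23-nt form made up 99.0, 99.9, 87.8, 85.2 and 75.1% from 0 to 24 h and 5.12, 1.46 and 2.02% on contact days 0, 3 and 5. The 22-nt form made up 0, 0.0777, 1.20, 2.22 and 14.8% and 92.7, 94.96 and 95.8% in the same order. The mean length of miRNA reads was 21.75 to 21.81 nt in the serum and 21.74 to 21.95 nt in the contact libraries, so the groups overlapped there.

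**Figure D5:**
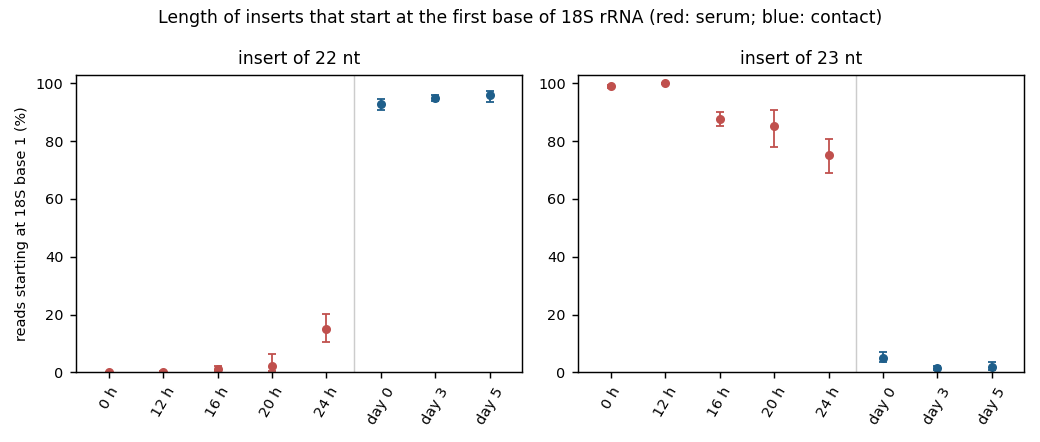
Share of reads starting at the first base of 18S rRNA that are 22 nt or 23 nt long (vertical axis, percent) in the serum (red) and contact (blue) libraries, with exact 95% intervals. The 23-nt form is at 75.1% or more in each serum library and at 5.12% or less in each contact library.

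No family passed the test between the libraries labelled G0 and the others. In edgeR's quasi-likelihood test over 384 small-RNA features, with the experiment as a term, 2 features (0.521%) passed a Benjamini-Hochberg adjusted p of 0.05, and 0 of the 13 member features did. None of the 13 had an unadjusted p under 0.05 either, and DESeq2 called 14 of 267 features (5.24%) and 0 members. The median log2 difference, G0 minus other, was -1.07 over the 13 and -0.20 over all features. Without TMM scaling the median of all features moved to -0.04, and the members' to -0.90. The smallest adjusted p of a member was that of 7SL, whose log2 difference was -1.07 (SE 0.61, adjusted p = 0.643). Y1 was at -0.54 (SE 0.56, adjusted p = 0.867), Y3 at 0.49 (SE 0.64, adjusted p = 0.872), U1 at 0.67 (SE 1.23) and U2 at 0.55 (SE 0.84). The other strand of CT010467.1 was at 0.52 (SE 0.45, adjusted p = 0.771).

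Counts were also simulated for this contrast, with the common dispersion (0.658) for every feature and no difference between the experiments. On these the same test called 2.27% of features changed 2-fold, 15.2% at 4-fold, 41.3% at 8-fold and 82.2% at 16-fold. Under those settings only very wide differences were detectable. Features of other dispersion were not simulated. The interaction of phase with experiment was tested as well. It called 1 of 384 features (0.26%) and 0 members. U1 (log2 -4.93, SE 2.39) and U2 (log2 -3.64, SE 1.67) had the only unadjusted p-values under 0.05 among the members, 0.0472 and 0.0366, each with an adjusted p of 0.841. Both were high in the G0 library of the serum series and low in those of the contact series.

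Sums over the classes were compared by permutation. All members together made up 0.160, 0.232, 0.176, 0.230 and 0.180% of usable inserts from 0 to 24 h and 0.115, 0.0945 and 0.0985% on contact days 0, 3 and 5. The mean was 0.118% ± 0.0368 (SD, n = 3) for G0 and 0.187% ± 0.0479 (SD, n = 5) for the others, which an exact 2-sided permutation test over 56 splits did not separate (p = 0.0893, adjusted 0.25 over 6 measures). The smallest p this design allows is 0.0179. These splits ignore the experiment, although all serum shares lay above all contact shares. Within each experiment the G0 libraries had the lowest shares, and over the 15 splits within experiments the exact permutation p was 0.0667, the smallest they allow (adjusted 0.4). The misc_RNA share was 0.0720 against 0.138% (exact permutation p = 0.107, adjusted 0.25), the rRNA share 0.00652 against 0.0108% (exact permutation p = 0.214, adjusted 0.257) and the snRNA share 0.0392 against 0.0384% (exact permutation p = 0.982). Mean insert length was 24.6 against 23.8 nt (exact permutation p = 0.125, adjusted 0.25). The share of reads that began at the transcript start was 29.2 against 19.2% (exact permutation p = 0.196, adjusted 0.257).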

How the data were processed

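The deposited files give, per library, the count of each distinct 36-nt read, with the 3′ adapter still present. Not given in the sources used here are the authors' caller, filters and genome build. In Python 3.11.15 (NumPy 2.4.6, SciPy 1.17.1) the adapter was trimmed from its first 6 bases on, tolerating 1 mismatch in every 8. Inserts that shared 12 bases with, or lay within 3 edits (edlib 1.3.9.post1) of, the 18-nt and 30-nt marker oligonucleotides were dropped, as were 5′ adapter and ambiguous inserts. Trimming recovered 100% of 5000 simulated reads.

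The reference was GENCODE M21 (GRCm38), with 1174 hairpins named Mir. Unnamed copies took the family of their best blastn 2.17.0 match (E-value 1e-05). Reads are not unique molecules. Summed counts of features at 10 CPM or more in at least 3 libraries were tested in edgeR 4.0.16 under R 4.3.3, with TMM factors and robust fits. SE is the absolute log2 difference over the square root of F. Since no condition has replicates, p-values reflect how libraries of different times and phases vary. DESeq2 1.42.0 was an alternative. Ratios have exact conditional binomial intervals and needed 20 reads in the libraries compared. Families with at least 100 reads are named. Fragments named by rule were, per family, the commonest 5′ end with its commonest insert and the end whose share varied most between libraries. The members, lists and rules were chosen with earlier results of these data known. No columns of other samples were used. Sequences that also match chromosome 18 are not shown. The sequence of 1 fragment is not reported here.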

Additional observations from a re-analysis of the deposited data

Results flagged for a closer look

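Gm24265 at serum 12 h stood apart from the other libraries not labelled G0. Its level there was 214 rpm, against 59.8 rpm in the next highest of these 5 libraries, and the gap made up 0.744 of their range, above the critical value of 0.71. It was the only 1 of 16 measures to pass, and chance passes about 1 in 20. All 59 reads were 1 insert.

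Reads on the strand opposite to CT010467.1, the 18S rRNA strand, lay outside the rule and numbered 13242. Reads that matched a member in all but an added last base numbered 5448.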

How the results depend on the processing

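No paired analysis was possible because each condition is 1 library and the replicate number pairs nothing. The share of all members (0.152%) was 0.220% per miRNA read, 0.135% with 8 adapter bases, 0.140% for 20 to 30 nt, 0.245% with 1 mismatch, 0.115% with every GENCODE miRNA as a hairpin, 0.426% by distinct inserts, 0.496% with the 18S strand and 0.293% with 1 added base. For inserts of 20 to 30 nt the mean length was 24.8 nt and 23.5% began at the start.

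Features called between G0 and other libraries numbered 14 with DESeq2, 9 without the filter, 1 without the experiment term and 0 by distinct inserts, and 0 to 5 when a library was left out (0 without serum 0 h, 5 without contact day 3). No member was called under any of 180 alternatives, with adjusted p from 0.278 to 1. Of these, 11 reversed sign: U2 to -0.21 (20 to 30 nt), -0.31 (distinct inserts) and -1.59 (without serum 0 h), U1 to -0.043 (without inserts of other types), -1.42 (distinct) and -2.32 (without serum 0 h), 5S to 0.027 without inserts of other types and 0.030 with 1 added base, Gm24265 to 0.17 (distinct) and 1.09 (without serum 0 h), and vault to 0.34 (without serum 0 h). The far ends of the ranges when a library was left out were 2.05 for U2, 2.60 for U1, -4.89 for Gm24265 and -2.56 for vault, all without contact day 0.

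Class sums and end measures, 6 in all, had adjusted p from 0.0857 to 1 over 90 alternatives, of which 9 reversed. The snRNA difference became -0.00632 (20 to 30 nt) and -0.00223 (without other types), and ranged from -0.0119 (without serum 0 h) to 0.0103 (without contact day 3), with -0.00307 and -0.00249 without 20 h and 24 h. All members became 0.0574 and the start share -3.31 by distinct inserts, and with the 18S strand all members became 0.0420 and rRNA 0.107. The causes were not tested. U2 and U1 in the 0 h library, without their commonest inserts, were added after the data were seen, as were distinct inserts, the 18S strand, added bases and every miRNA as a hairpin, added A at the 3′ end alone and the class ratio without the 2 inserts. Depth limits families under 10 reads in a library.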
